A study of Mus musculus with 6 samples.

Results

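Fatty acid synthesis, elongation and oxidation are covered by 46 genes, which were set by name from the pathway (synthesis of the carbon chain, desaturation, elongation, activation, uptake and binding, carnitine shuttle, beta-oxidation, regulators and lipolysis) and not by their values. Earlier results of these data were, however, known when the genes were chosen. All 46 were found among the 23282 gene entries of the count tables. Of these, 43 passed the filter on low counts and were tested, and Fads6, Cd36 and Cpt1b were under it. The normal chow diet (NCD) or a high-fat diet (HFD), in which most of the calories came from fat, was fed for 10 days, and 3 libraries were made for each diet. All mice were wild-type (WT) adult C57BL/6J males, and each library held RNA of a forebrain hemisphere without the olfactory bulb and cerebellum. QuantSeq libraries are read near the 3′ ends of transcripts, and the deposited values are read counts per gene, given here as CPM, the read count scaled to the total of its library after TMM normalization. They are not divided by transcript length, so levels are compared between libraries and never between genes.

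Fatty acids are built in the cytosol from citrate-derived acetyl-CoA, which Acly makes, Acaca carboxylates and Fasn joins into palmitate. Desaturases (Scd1, Scd2 and the Fads genes) then add double bonds and Elovl enzymes lengthen the chain, which in brain supplies myelin and the polyunsaturated fatty acids of synaptic membranes. For oxidation the chain is tied to CoA, passed into mitochondria by carnitine transferases and shortened by the dehydrogenases, hydratases and thiolases of beta-oxidation, a path that in brain is used mainly by astrocytes.

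The upstream sequences of 2 synthesis genes and the stretch between a pair of oxidation genes are shown as examples. The libraries of these 4 genes, among others given below, did not overlap between the diets. Fasn lies on the minus strand at chr11:120805846-120824547 and Elovl5 on the plus strand at chr9:77917364-77984519 (GRCm38, GENCODE vM21). Hadha on the minus strand at chr5:30118304-30155162 and Hadhb on the plus strand at chr5:30155248-30184593 stand head to head, with 85 bases between their starts. Capitals mark the matches, on either strand, to a CCAAT box (CCAAT), an E-box (CACGTG), a GC box (GGGCGG), a nuclear receptor half-site (AGGTCA) and a core of the sterol response element (TCACNCCAC). The first pair of lines gives the 250 bases before the RefSeq start (GRCm38.p6), and all 3 are written 5′ to 3′.
Fasn, chr11:120824548-120824797, minus strand: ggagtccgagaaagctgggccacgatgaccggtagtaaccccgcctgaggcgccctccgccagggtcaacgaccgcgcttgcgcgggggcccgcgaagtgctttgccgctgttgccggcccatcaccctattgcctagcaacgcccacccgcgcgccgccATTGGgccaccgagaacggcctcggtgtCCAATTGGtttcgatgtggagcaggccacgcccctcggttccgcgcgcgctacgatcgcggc
Elovl5, chr9:77917115-77917364, plus strand: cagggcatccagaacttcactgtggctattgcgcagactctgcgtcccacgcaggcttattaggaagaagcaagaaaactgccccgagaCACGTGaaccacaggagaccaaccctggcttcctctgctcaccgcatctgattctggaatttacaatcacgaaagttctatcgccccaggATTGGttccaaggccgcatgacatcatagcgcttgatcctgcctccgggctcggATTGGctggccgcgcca
Hadha to Hadhb, chr5:30155163-30155247, plus strand: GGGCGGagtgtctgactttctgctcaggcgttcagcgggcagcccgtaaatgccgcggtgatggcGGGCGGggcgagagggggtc
Fasn held 3 matches to the CCAAT box, of which a pair overlapped on opposite strands, Elovl5 held 2 and also 1 E-box, and the stretch between Hadha and Hadhb held 2 GC boxes. RefSeq promoters of 250 bases before to 50 after the start were found for 39 of the 46 genes, 45 promoters in all. Scd1, Scd2 and Fads1 were among the genes without one. The core of the sterol response element was in 2 of these 45, those of Acsl1 and Ehhadh, against 1.24% of all 32851 promoters. The CCAAT box was in 20, against 37.4% of all promoters. The GC box was in 31, against 35.7%, the half-site in 13, against 16.3%, and the E-box in 3 (Elovl4, Elovl5 and Lipe), against 7.15%.

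The total count was between 8061348 and 9689372 in the NCD libraries and between 6842785 and 9119597 in the HFD libraries, where 3 counts correspond to 0.316 to 0.432 CPM. Of 13771 genes tested with edgeR's quasi-likelihood test, 0 had an adjusted p under 0.05 (Benjamini-Hochberg), and 507 had an unadjusted p under 0.05. With DESeq2, 2 genes had an adjusted p under 0.05, with quantile normalization and limma 0, and none of the fatty acid genes was among them. Markers of neurons, astrocytes and oligodendrocytes were present in every library, with summed levels of 7073 to 8018, 4164 to 4744 and 8238 to 9990 CPM. HFD replicate 3 stood apart, with 1276 CPM of pituitary hormone transcripts against 4.75 to 13.6 CPM in the other libraries. The 11 liver transcripts summed to 12.6 to 61.6 CPM in the NCD and 7.15 to 14.8 CPM in the HFD libraries, and 6 of the 6 tested were lower on the HFD with an unadjusted p under 0.05. The 5 blood transcripts summed to 421 to 519 CPM in the NCD and 544 to 824 CPM in the HFD libraries, and 4 of the 5 were higher on the HFD with an unadjusted p under 0.05. Summed microglia and macrophage markers did not overlap either, with 495 to 498 CPM in the NCD and 506 to 533 CPM in the HFD libraries. Of these 10 markers, however, 0 had an unadjusted p under 0.05 and 0 had every HFD library above every NCD library. Whether these transcripts have a part in the values of the fatty acid genes was not tested. In such tissue samples, fewer cells of a type and less RNA per cell cannot be told apart.

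Among the 43 fatty acid genes tested, 0 had an adjusted p under 0.05 (0.0% of all genes), and the smallest adjusted p was 0.979. Scd1 and Scd2, the stearoyl-CoA desaturases that make monounsaturated fatty acids, were lower on the HFD with an unadjusted p under 0.05, which is 4.65% of the genes tested here against 1.98% of all genes. None was higher at this threshold, against 1.71% of all genes. In 10 of the 43 genes (23.3%) every HFD library was below every NCD library, against 4.49% of all genes tested. These were Fasn, Scd1, Scd2, Fads1, Elovl1, Elovl5, Acsl5, Acadvl, Hadha and Pnpla2, and 6 of them belong to synthesis, desaturation or elongation. Only Hadhb had every HFD library above every NCD library (2.33% against 4.31%). In 5 of the 10 genes the gap between the lowest NCD and the highest HFD library was under 2% of the gene's mean level. The 10 genes share libraries and are not independent of each other. Without HFD replicate 3, the count with all HFD below all NCD was 11 of 43 against 9.29% of all genes, and the count with all above was 5 against 8.92%.

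**Figure D1:**
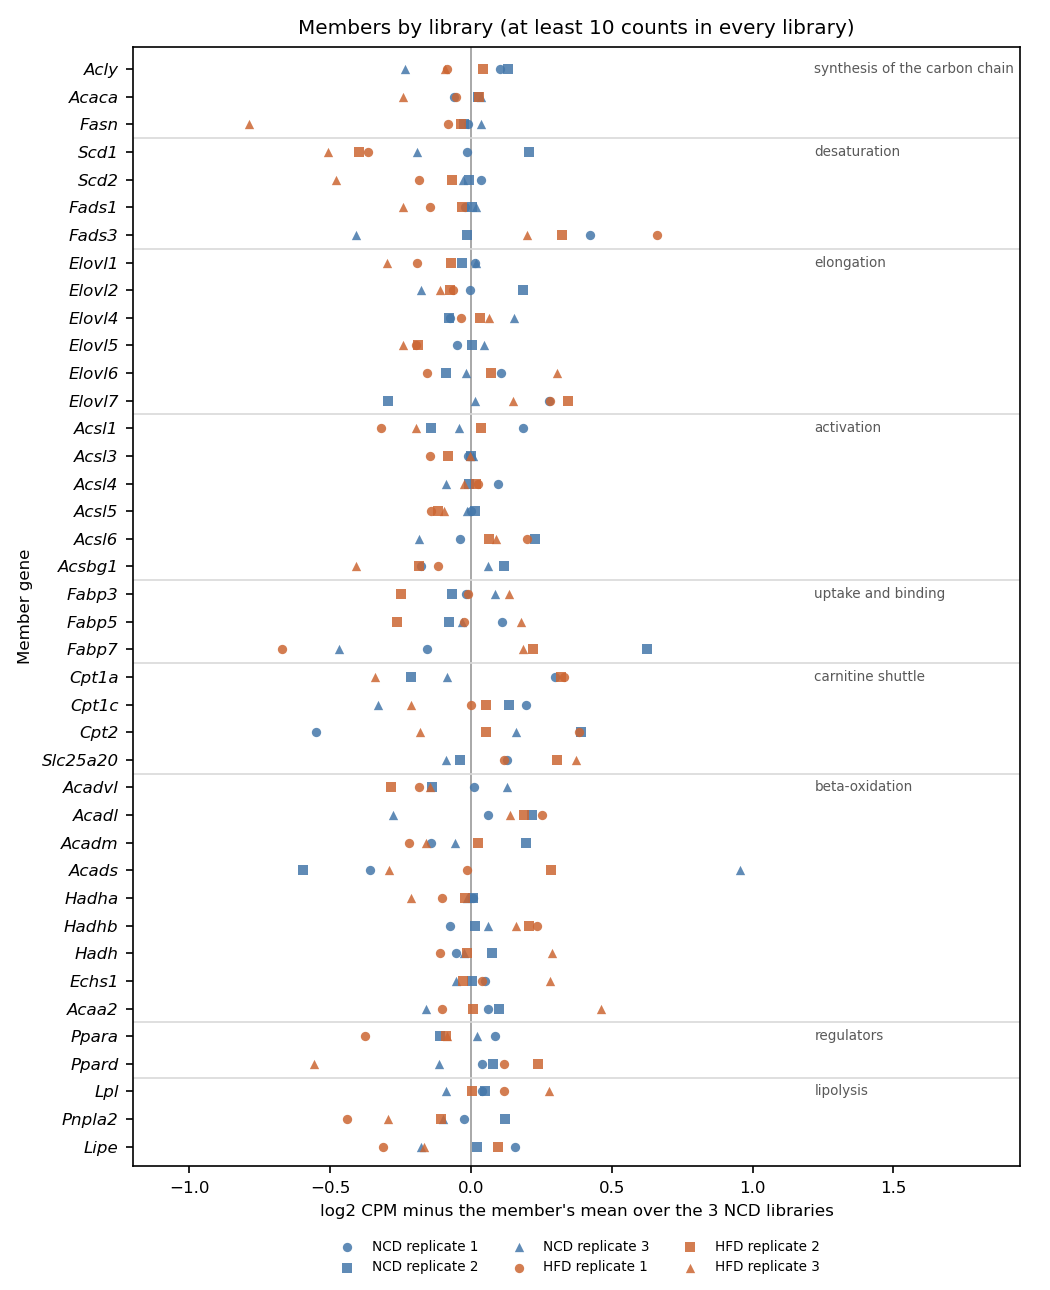
Level of the 40 fatty acid genes with at least 10 counts in every library, as log2 CPM minus the gene's mean over the 3 NCD libraries (x axis), with genes by role on the y axis. Each point is 1 library, blue for NCD and orange for HFD, with circles, squares and triangles for replicates 1, 2 and 3. Scd1 and Elovl5 have all orange points left of the blue, and the Fasn point farthest to the left is HFD replicate 3.

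Desaturation held the 2 lowest p-values of the set. Scd1 was at 92.6, 108 and 82.0 CPM in NCD replicates 1, 2 and 3 and at 72.6, 71.0 and 65.9 CPM in the HFD replicates. Every HFD library was therefore below the lowest NCD library, by 11.5% of the gene's mean level. The log2 fold change was -0.43 (SE 0.12, 95% interval -0.68 to -0.18), or 0.741 times the NCD level, with an unadjusted p of 0.00205 and an adjusted p of 0.979 in edgeR. The unadjusted p stayed at or under 0.0246 when any 1 library was left out, with log2 fold changes of -0.52 to -0.32. Of the stretches of 50 bases in the last 500 bases of Scd1 transcripts, 14.0% also occur in AC123853.3, Scd2, Scd3 or Scd4. For the ends of Scd2 transcripts the share found in other genes was 0.0%.

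Scd2, the form most abundant in brain and in myelinating glia, was at 621, 604 and 595 CPM in the NCD and at 534, 579 and 435 CPM in the HFD libraries. The groups did not overlap, and HFD replicate 3 was the lowest. The log2 fold change was -0.23 (SE 0.11, 95% interval -0.46 to -0.00), with an unadjusted p of 0.0461 and an adjusted p of 0.979 in edgeR. Leaving out any library but HFD replicate 2 moved the unadjusted p above 0.05, to 0.127, 0.0854 and 0.0595 without NCD replicates 1, 2 and 3, to 0.0587 without HFD replicate 1 and to 0.139 without HFD replicate 3. Without HFD replicate 3 the log2 fold change was -0.13. Scd2 at chr19:44293674-44306864 and Scd1 at chr19:44394455-44407879 lie on opposite strands of the same chromosome. The ratio of Scd2 to Scd1 counts was 6.71, 5.59 and 7.26 in the NCD and 7.36, 8.15 and 6.61 in the HFD libraries, so that it overlapped between the diets.

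Fads1, the desaturase that makes arachidonic and eicosapentaenoic acid, was at 149, 151 and 153 CPM in the NCD and at 136, 148 and 128 CPM in the HFD libraries. Its highest HFD library was 0.762% of the mean level below its lowest NCD library, and the log2 fold change was -0.14 (SE 0.10, adjusted p 0.979 in edgeR). Fads2, which performs the first desaturation of linoleic and alpha-linolenic acid, was read from few counts, 17, 11 and 22 in the NCD and 5, 18 and 21 in the HFD libraries. At 0.00, its log2 fold change had a 95% interval of -1.02 to 1.03, so that a change of up to about this size in either direction was not detectable at this depth. Fads3, a desaturase of the same cluster that acts on sphingoid bases, was at 11.2, 8.31 and 6.32 CPM in the NCD and at 13.2, 10.5 and 9.62 CPM in the HFD libraries, with overlap and a log2 fold change of 0.37 (SE 0.23, adjusted p 0.979 in edgeR), which ran from 0.19 (unadjusted p 0.424) without NCD replicate 3 to 0.60 (unadjusted p 0.0287) without NCD replicate 1. The 3 genes lie side by side between positions 10041569 and 10196877 of chromosome 19. Fads6, a desaturase-like gene, had 0, 1 and 3 counts in the NCD and 0, 1 and 2 in the HFD libraries.

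**Figure D2:**
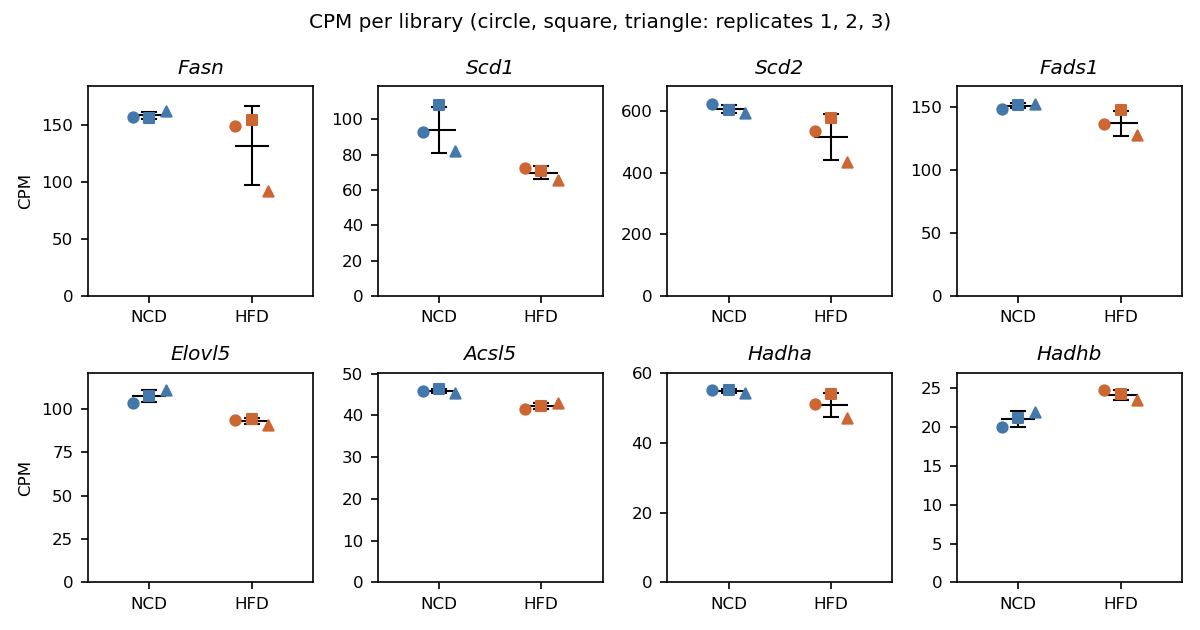
CPM per library (y axis, from 0) of 8 fatty acid genes whose libraries do not overlap between NCD and HFD (x axis). Points are libraries (circle, square and triangle for replicates 1, 2 and 3), and the bar and whiskers give the mean and SD of 3 libraries. The lowest HFD point is replicate 3 in every gene shown but Acsl5, and it is farthest from the other HFD points in Fasn. The HFD libraries of Acsl5 and Elovl5 lie close together.

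Of the 4 genes listed under synthesis of the carbon chain, 3 had a log2 fold change below 0 and 1, Acacb, above, with a median of -0.07. Fasn, the fatty acid synthase, was at 158, 156 and 163 CPM in the NCD and at 149.9, 155 and 92.0 CPM in the HFD libraries. HFD replicates 1 and 2 were close to the NCD libraries, and HFD replicate 3 was far below them. The log2 fold change of -0.26 (SE 0.15, unadjusted p 0.102, adjusted p 0.979 in edgeR) was -0.06 with a p of 0.491 without HFD replicate 3, -0.36 with a p of 0.0448 without HFD replicate 1, and -0.39 with a p of 0.0324 without HFD replicate 2. Acaca, which makes malonyl-CoA and is the rate-limiting step of synthesis, was at 31.4, 33.2 and 33.5 CPM in the NCD and at 31.5, 33.3 and 27.6 CPM in the HFD libraries. The groups overlapped, and the log2 fold change of -0.08 had a 95% interval of -0.36 to 0.19. Acacb, the mitochondrial carboxylase whose malonyl-CoA blocks carnitine transfer, had 3, 4 and 13 counts in the NCD and 12, 18 and 5 in the HFD libraries. The log2 fold change was 0.99 (SE 0.60, adjusted p 0.979 in edgeR), from few counts and with overlapping groups. It was 1.84 (unadjusted p 0.0176) without NCD replicate 3 and 1.31 (unadjusted p 0.0478) without HFD replicate 3, but 0.69 (unadjusted p 0.354) without HFD replicate 2, 0.70 (unadjusted p 0.293) without NCD replicate 1 and 0.72 (unadjusted p 0.297) without NCD replicate 2. Acly, the ATP citrate lyase, ranged from 82.5 to 106 CPM in the NCD and from 91.0 to 100.1 CPM in the HFD libraries, with a log2 fold change of -0.05 (SE 0.12).

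The 6 elongases had a median log2 fold change of -0.04, with 3 below 0 and 3 above. Elovl5, which elongates polyunsaturated fatty acids, was at 104, 108 and 111 CPM in the NCD and at 94.0, 94.3 and 91.0 CPM in the HFD libraries. Its groups were apart by 9.47% of the mean level, with little spread within each diet. The log2 fold change was -0.21 (SE 0.10, 95% interval -0.42 to 0.01, unadjusted p 0.0551, adjusted p 0.979 in edgeR) and stayed between -0.23 and -0.18 when any 1 library was left out. Elovl1, which makes saturated very long chains for sphingolipids, was at 16.9, 16.4 and 17.0 CPM in the NCD and at 14.7, 15.95 and 13.6 CPM in the HFD libraries, with a log2 fold change of -0.18 (SE 0.16). The groups did not overlap, and exons of Elovl1 overlap those of Cdc20 on the other strand, so that their reads cannot be told apart if strand was not used in counting. Elovl7, an elongase of long saturated chains, was at 26.3, 17.7 and 21.9 CPM in the NCD and at 26.3, 27.5 and 24.1 CPM in the HFD libraries, with a log2 fold change of 0.25 (SE 0.16), which ran from 0.11 (unadjusted p 0.506) without NCD replicate 2 to 0.39 (unadjusted p 0.0373) without NCD replicate 1. Elovl6, which extends palmitate to stearate, was at 57.3, 49.9 and 52.5 CPM in the NCD and at 47.6, 55.8 and 65.7 CPM in the HFD libraries, with a log2 fold change of 0.08 (SE 0.13). Both overlapped between the diets and had an adjusted p of 0.979 in edgeR, as did Elovl1. Elovl2, an elongase of long polyunsaturated chains, and Elovl4, which makes the very longest chains, had log2 fold changes of -0.09 (SE 0.20) and 0.02 (SE 0.12).

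Activation to acyl-CoA is the step shared by synthesis and oxidation, and 4 of its 6 genes had a log2 fold change below 0, with a median of -0.10. Acsl5, an acyl-CoA synthetase, was at 45.9, 46.3 and 45.4 CPM in the NCD and at 41.6, 42.3 and 42.9 CPM in the HFD libraries. It had the smallest spread within the diets of the 40 genes with at least 10 counts in every library, an SD of 0.0184 on the log2 scale. The groups were apart by 5.70% of the mean level, but the log2 fold change was only -0.12 (SE 0.11, adjusted p 0.979 in edgeR), and exons of Acsl5 overlap those of Zdhhc6 on the other strand. Acsbg1, the acyl-CoA synthetase of astrocytes, was at 36.4, 44.7 and 43.0 CPM in the NCD and at 38.0, 36.3 and 31.1 CPM in the HFD libraries, with overlap and a log2 fold change of -0.24 (SE 0.13, unadjusted p 0.092, adjusted p 0.979 in edgeR). Acsl6, the synthetase of neurons and astrocytes that enriches docosahexaenoic acid, was at 83.1, 99.99 and 75.1 CPM in the NCD and at 98.0, 89.3 and 90.9 CPM in the HFD libraries, with a log2 fold change of 0.11 (SE 0.12). Acsl1, Acsl3 and Acsl4 had log2 fold changes of -0.15, -0.08 and 0.00.

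Over the 3 tested genes of uptake and binding, the median log2 fold change was -0.04, and all 3 overlapped between the diets. Fabp5, a binding protein that carries docosahexaenoic acid at the blood-brain barrier, was at 157, 137 and 142 CPM in the NCD and at 143, 121 and 164 CPM in the HFD libraries, with a log2 fold change of -0.03 (SE 0.12). Fabp7, the binding protein of radial glia and astrocytes, varied most of these 3 among replicates, with 26.9, 46.3 and 21.7 CPM in the NCD and 18.9, 35.0 and 34.1 CPM in the HFD libraries. Around -0.10 (SE 0.25), its log2 fold change ran from -0.32 to 0.28 when 1 library was left out. Fabp3, the heart-type binding protein, had a log2 fold change of -0.04 (SE 0.12). Cd36, the fatty acid translocase, was under the filter with 3, 20 and 3 counts in the NCD and 6, 9 and 10 in the HFD libraries.

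**Figure D3:**
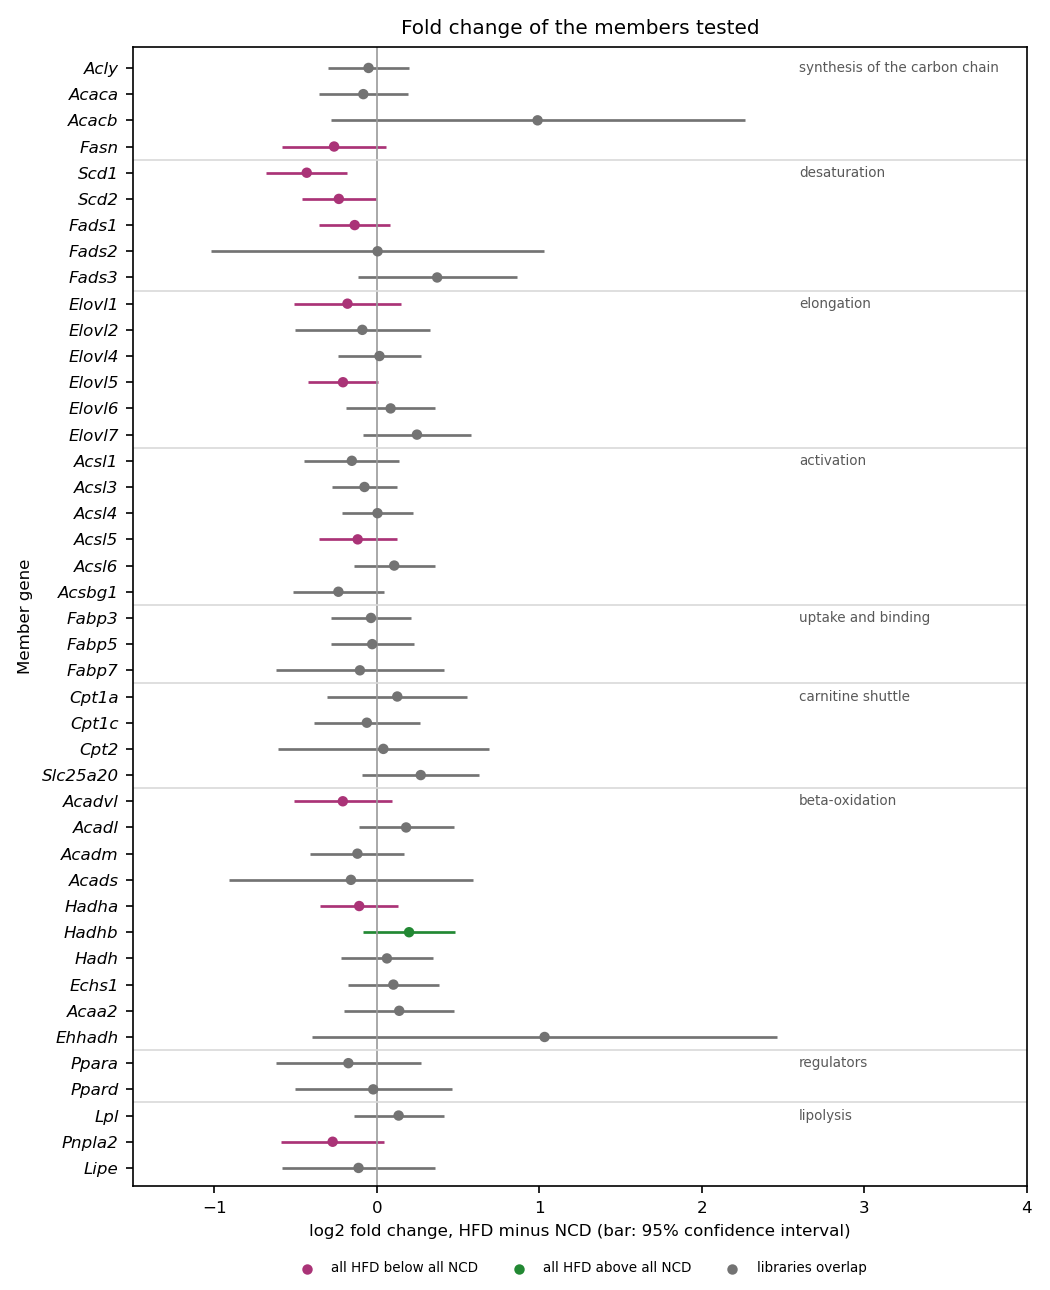
Log2 fold change, HFD minus NCD (x axis), of the 43 fatty acid genes tested, with genes by role on the y axis and bars for the 95% confidence interval of edgeR's quasi-likelihood fit. Purple marks the 10 genes with every HFD library below every NCD library, green marks Hadhb, with every HFD library above, and grey the rest. The intervals of Scd1 and Scd2 lie below 0, and those of Acacb, Fads2 and Ehhadh are the widest.

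In the carnitine shuttle, 3 of the 4 genes tested had a log2 fold change above 0, with a median of 0.08. Cpt1a, the malonyl-CoA-sensitive gate of mitochondrial oxidation, was at 16.9, 11.9 and 12.96 CPM in the NCD and at 17.3, 17.2 and 10.9 CPM in the HFD libraries. With overlapping groups, the log2 fold change of 0.13 had a 95% interval of -0.31 to 0.56. Cpt1c, the neuronal form, which has little transferase activity, was at 34.1, 32.7 and 23.7 CPM in the NCD and at 29.8, 30.9 and 25.7 CPM in the HFD libraries, with a log2 fold change of -0.06 (SE 0.15). Slc25a20, the carnitine-acylcarnitine carrier of the inner membrane, was at 13.3, 11.9 and 11.5 CPM in the NCD and at 13.2, 15.1 and 15.8 CPM in the HFD libraries, with a log2 fold change of 0.27 (SE 0.17, adjusted p 0.979 in edgeR). Its NCD replicate 1 lay just above HFD replicate 1, so that the groups overlapped. Cpt2, the inner membrane transferase, had a log2 fold change of 0.04 (SE 0.31). Cpt1b, the muscle form, had 0, 1 and 5 counts in the NCD and 2, 6 and 5 in the HFD libraries, and 78.5% of the stretches of 50 bases at its transcript ends are shared with Gm44502.

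Of the 10 beta-oxidation genes, 4 had a log2 fold change below 0 and 6 above, with a median of 0.08. Hadha and Hadhb, the alpha and beta subunits of the mitochondrial trifunctional protein, had fold changes of opposite sign. Hadha was at 55.2, 55.1 and 54.3 CPM in the NCD and at 51.1, 54.1 and 47.3 CPM in the HFD libraries, and its groups were apart by only 0.315% of the mean level. Hadhb was at 19.996, 21.2 and 21.9 CPM in the NCD and at 24.8, 24.3 and 23.5 CPM in the HFD libraries, apart by 7.06%. In edgeR these were -0.11 (SE 0.11, unadjusted p 0.349) for Hadha and 0.20 (SE 0.14, unadjusted p 0.161) for Hadhb, both with an adjusted p of 0.979. The ratio of Hadhb to Hadha counts, looked at after these values were seen and not tested, was 0.362, 0.386 and 0.404 in the NCD and 0.485, 0.448 and 0.497 in the HFD libraries. With Hadha lower and Hadhb higher in every HFD library, this ratio could only be higher there, so it adds no further result. Of the stretches of 50 bases at the ends of Hadhb transcripts, 43.2% also occur in Gm13910 or Gm9108, and exons of Hadha overlap those of Garem2 on the other strand, so both levels can hold reads of these genes.

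The acyl-CoA dehydrogenases, which take the first step of each round for chains of different length, lay on both sides of 0. Acadvl, for very long chains, was at 23.6, 21.2 and 25.6 CPM in the NCD and at 20.6, 19.2 and 21.2 CPM in the HFD libraries. NCD replicate 2 and HFD replicate 3 were apart by 0.354% of the mean level, and the log2 fold change was -0.21 (SE 0.14, adjusted p 0.979 in edgeR). Exons of Acadvl overlap those of Dvl2 on the other strand. Acadm, for medium chains, was at 30.4, 38.4 and 32.2 CPM in the NCD and at 28.8, 34.1 and 30.0 CPM in the HFD libraries, with a log2 fold change of -0.12 (SE 0.14). Acadl, for long chains, had a log2 fold change of 0.18 (SE 0.14), which was 0.05 without NCD replicate 3, and Acads, for short chains, one of -0.16 (SE 0.36), the latter between -0.43 and 0.50 when 1 library was left out. The later steps of the cycle, Echs1, Hadh and Acaa2, had log2 fold changes of 0.10, 0.06 and 0.14, each with its highest level in HFD replicate 3. Without that library the values were 0.0031 for Echs1, -0.06 for Hadh and -0.05 for Acaa2, so that the sign turned for Hadh and Acaa2. Ehhadh, the peroxisomal bifunctional enzyme, had 3, 13 and 1 counts in the NCD and 6, 16 and 9 in the HFD libraries, and its log2 fold change of 1.03 had a 95% interval of -0.40 to 2.46. When 1 library was left out it ran from 0.52 (unadjusted p 0.42 in edgeR) without NCD replicate 3 to 2.44 (unadjusted p 0.00865) without NCD replicate 2, again from few counts.

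Ppara and Ppard, nuclear receptors that bind fatty acids and turn on oxidation genes, had log2 fold changes of -0.18 (SE 0.21) and -0.02 (SE 0.23). Ppara was at 9.13, 7.98 and 8.74 CPM in the NCD and at 6.62, 8.09 and 8.11 CPM in the HFD libraries, with overlap. Ppard was at 9.13, 9.38 and 8.22 CPM in the NCD and at 9.64, 10.5 and 6.05 CPM in the HFD libraries, and HFD replicates lay on both sides of the NCD libraries. Among the lipases, Pnpla2, which takes the first fatty acid from stored triglyceride, was at 21.7, 24.1 and 20.6 CPM in the NCD and at 16.3, 20.5 and 18.0 CPM in the HFD libraries. Its groups were apart by 0.523% of the mean level, with a log2 fold change of -0.27 (SE 0.15, unadjusted p 0.0881, adjusted p 0.979 in edgeR). Lpl, which releases fatty acids from lipoproteins, was at 30.2, 30.5 and 27.7 CPM in the NCD and at 32.0, 29.5 and 35.7 CPM in the HFD libraries, with a log2 fold change of 0.13 (SE 0.13), and Lipe, the hormone-sensitive lipase, had one of -0.11 (SE 0.22).

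Set side by side, the 15 genes tested for synthesis, desaturation and elongation had a median log2 fold change of -0.08, with 9 below 0. Acacb was counted among these 15, although its malonyl-CoA acts on carnitine transfer. The 14 tested for the carnitine shuttle and beta-oxidation had a median of 0.08, with 5 below 0. Over all 13771 genes the median was -0.00, with 50.6% below 0. Without HFD replicate 3 the median of the oxidation genes was 0.01. To weigh each gene equally, its level in a library was divided by its mean over the 6 libraries, for the 13 genes of each kind with at least 10 counts in every library. The mean level of the synthesis genes was 106%, 103% and 98.9% in the NCD and 99.1%, 102% and 91.2% in the HFD libraries. That of the oxidation genes was 96.4%, 99.3% and 100.7% in the NCD and 100.96%, 103% and 99.4% in the HFD libraries. Synthesis minus oxidation on the log2 scale was 0.05 ± 0.08 (SD, n = 3) in the NCD and -0.06 ± 0.06 (SD, n = 3) in the HFD libraries, with NCD replicate 3 at the level of HFD replicates 1 and 2. The difference between the diets was -0.11, and -0.07 without HFD replicate 3, and was not tested.

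**Figure D4:**
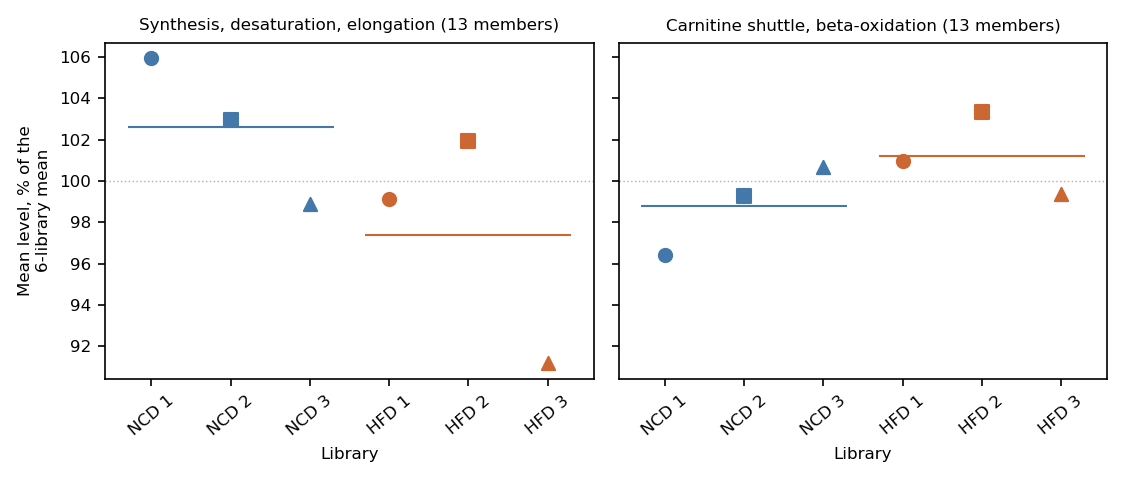
Mean level of 13 genes of synthesis, desaturation and elongation (left) and of 13 genes of the carnitine shuttle and beta-oxidation (right) in each library (x axis), in percent of the mean over the 6 libraries (y axis, which does not start at 0). Points are libraries, blue for NCD and orange for HFD, and lines are the means of 3 libraries. The synthesis genes are lowest in HFD replicate 3, at 91.2%, and both panels hold NCD and HFD points at like levels.

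Of 104 further genes of these pathways found in the tables, 92 were tested, 49 with a log2 fold change below 0 and 43 above, with a median of -0.01. At an unadjusted p under 0.05, 2 of the 92 were lower on the HFD, against 1.98% of all genes, and 2 were higher, against 1.71%. With adjustment 0 passed, as over all genes. Every HFD library was below every NCD library in 5 of the 92 (5.43%, against 4.49% of all genes) and above in 4 (4.35%, against 4.31%). Srebf1, the transcription factor that drives synthesis genes such as Fasn and Scd1, was at 36.8, 42.3 and 38.9 CPM in the NCD and at 35.0, 32.5 and 28.0 CPM in the HFD libraries. The groups did not overlap, with a log2 fold change of -0.31 (SE 0.13, unadjusted p 0.0324, adjusted p 0.979 in edgeR), and exons of Srebf1 overlap those of Rai1 on the other strand. The p was 0.125 without NCD replicate 2, 0.0632 without HFD replicate 2 and 0.0869 without HFD replicate 3, where the log2 fold change was -0.23. Mfsd2a, the carrier that takes docosahexaenoic acid across the blood-brain barrier as lysophosphatidylcholine, was at 24.3, 26.6 and 24.4 CPM in the NCD and at 18.6, 19.997 and 15.8 CPM in the HFD libraries. Its groups were apart by 19.97% of the mean level, with a log2 fold change of -0.47 (SE 0.15, unadjusted p 0.00517, adjusted p 0.979 in edgeR), and the p was at most 0.0253 when any 1 library was left out. Summed endothelial markers were at 189.6 to 206 CPM in the NCD and 193 to 229 CPM in the HFD libraries, with overlap. Of the 10 markers, 2 had every HFD library above every NCD library, against 4.31% of all genes, and 0 had every one below. Whether endothelial content has a part in the level of Mfsd2a was not tested.

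Acot13, a mitochondrial thioesterase that frees fatty acids from CoA, was at 231, 227 and 177 CPM in the NCD and at 229, 239.9 and 305 CPM in the HFD libraries, with a log2 fold change of 0.29 (SE 0.13, unadjusted p 0.0426, adjusted p 0.979 in edgeR). Abhd5, the activator of the lipase encoded by Pnpla2, was at 18.8, 16.6 and 15.5 CPM in the NCD and at 20.7, 18.6 and 27.2 CPM in the HFD libraries, with a log2 fold change of 0.39 (SE 0.17, unadjusted p 0.0354, adjusted p 0.979 in edgeR). Both overlapped between the diets and were highest in HFD replicate 3, without which the log2 fold changes were 0.15 for Acot13 (p 0.185) and 0.21 for Abhd5 (p 0.203) in edgeR. The p of Acot13 was also above 0.05 without NCD replicate 3, at 0.208, with a log2 fold change of 0.17. That of Abhd5 was 0.0777 without NCD replicate 2 and 0.107 without NCD replicate 3, and with a replicate block the p was 0.0852 for Acot13 and 0.0554 for Abhd5. Exons of Abhd5 overlap those of A730085K08Rik on the other strand. Of the 16 further genes of mitochondrial oxidation tested, 12 had a log2 fold change above 0, with a median of 0.05, and 0 had an unadjusted p under 0.05. Of 13 genes of peroxisomal oxidation, 7 were below 0, with a median of -0.01, and of 10 genes of PPAR regulation and targets, 6 were below 0, with a median of -0.07.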

How the data were processed

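RNA of 3 NCD and 3 HFD forebrain samples was measured with QuantSeq 3′ mRNA-Seq. The authors trimmed the reads, mapped them to mm10 with Bowtie2 and counted unique and multiple alignments with Bedtools, and they deposited raw read counts per gene, without normalization. The annotation and the use of strand are not given in the sources used here. Since multiple alignments were counted, genes with near-identical copies can hold shared reads. Besides the genes marked above, stretches of 50 bases at transcript ends were shared with other genes for Acaca (20.2%), Fabp3 (27.9%) and Slc25a20 (16.5%), among others. Each entry names a gene, and 79 entries with a symbol that occurs more than once were not merged.

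Counts were fitted in R 4.3.3 with edgeR 4.0.16 (TMM, filterByExpr keeping genes with 10 counts in enough libraries and 15 in total, glmQLFit and glmQLFTest, Benjamini-Hochberg over 13771 genes, two-sided, common biological coefficient of variation 0.126). CPM used TMM-scaled totals. Standard errors were the log2 fold change over the square root of F. Floors of 3 counts cover counting error only. Replicate libraries of a diet differed by more than counting noise (chi-square per degree of freedom 3.58 to 17.1). Pairs with replicate 3 differed most in both diets, at 9.74 and 13.4 in the NCD and 17.1 and 15.0 in the HFD libraries. The labels do not say that the samples came from separate animals, so p-values measure the spread between these samples. The members and lists were chosen with earlier results of these data known. Of the 46 genes, those given by library were the ones with an unadjusted p under 0.05, those whose libraries did not overlap, the highest and lowest fold change of each role, and the best known enzymes. Of the further pathway genes, only those with an unadjusted p under 0.05 were named. Alternatives were DESeq2 1.42.0, quantile normalization of log2(CPM + 1) with limma 3.58.1, scaling by the upper quartile or by library size, leaving the filter out or asking for 10 counts in all libraries, removing genes above 2% of the counts, a replicate block, and fits without 1 library. The fits were tested on simulated data. Positions and transcript ends came from GENCODE vM21, promoters from RefSeq, and plots from matplotlib 3.10.9.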

Additional observations from a re-analysis of the deposited data

How the results depend on the processing

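The count of genes with an unadjusted p under 0.05 and a lower level on the HFD, 2 as reported, was 1 with quantile normalization and limma and 1 to 3 when 1 library was left out. The count of higher genes, 0 as reported, was 0 to 2 when 1 library was left out. The count with every HFD library above every NCD library, 1 as reported, was 2 with library size alone and 2 to 5 when 1 library was left out. The median log2 fold change of the oxidation genes, 0.08 as reported, was 0.00803 to 0.10 when 1 library was left out, the lowest without HFD replicate 3. The difference of synthesis minus oxidation between the diets, -0.11 as reported, was -0.22 on summed CPM, where abundant genes such as Scd2 weigh more. With a replicate block the count of lower genes was 2, the median of the synthesis genes -0.09 and that of the oxidation genes 0.08. Deviations of same-numbered libraries from the means of their diets had correlations of -0.0295, 0.0515 and -0.0574 over the genes tested. Such correlations cannot decide whether same-numbered libraries were handled together, which the labels do not say. Of 655 refits of 47 genes named with values, 35 changed sign, in 15 genes with a log2 fold change of at most 0.16 in size. Over all genes, 0 had an adjusted p under 0.05 as reported, 2 with DESeq2, 23 without the filter on low counts and 1 without NCD replicate 3, and none was a fatty acid gene. With 3 libraries a diet, the 95% intervals of genes with few counts, such as Fads2, Acacb and Ehhadh, span more than a doubling.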
